A study of Mus musculus with 6 samples.

Results

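The genes of the mitogen-activated protein (MAP) kinase cascade and of its inhibitors were followed across 6 Agilent 2-colour arrays, 2 for each of 3 kinds of cultured mouse cells. The set was defined by name. It took every non-control probe whose RefSeq accession belongs to a mouse gene with a symbol beginning Mapk, Map2k, Map3k, Map4k, Dusp, Spry plus a number, or Spred, and added Eras. This gave 75 of 41006 probes and 61 of 12323 named genes. Of these genes, 32 were kinases (11 MAP kinases, 6 MAP2K, 13 MAP3K and 2 MAP4K). By family name, 20 were counted as inhibitors (8 MAP kinase phosphatases, 8 other dual-specificity phosphatases, 3 Sprouty genes and 1 Spred gene). Whether each of the 20 inhibits the cascade was not tested. A further 8 were scaffold proteins, substrate kinases or genes named after a MAP kinase, and the last was Eras. The RefSeq gene table lists 87 symbols under this rule, and 26 of them had no probe named through it. Mapk8, Mapk9, Map2k7, Dusp4, Dusp5, Spred1, Spred2 and Spry3 are among those 26 and are not analysed here.

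Multipotent adult progenitor cells (MAPC) had been grown from mouse bone marrow in 5% oxygen and 2% serum with epidermal growth factor (EGF, 10 ng/mL), platelet-derived growth factor PDGF-BB and leukemia inhibitory factor (LIF, 1000 units/mL). Cells carrying CD45 or Ter119 had been removed after 4 weeks, the remaining cells replated at 10 per well, and the culture carried beyond 80 population doublings. Both MAPC arrays are titled mMAPC-1 and described as clone 2, high in Oct4, and were taken as 1 clone. How these names relate is not stated in the labels. Embryonic stem cells (ESC) were C57BL/6 cells kept in 15% serum and LIF on irradiated embryonic fibroblasts and moved to feeder-free plates before RNA was taken. Neurospheres (NS) were grown from the C57BL/6 forebrain of E11.5 embryos with 20 ng/mL basic fibroblast growth factor (FGF) and EGF. The labels name no genetic alteration in any group. Every sample was labelled with Cy3 and hybridised beside a Cy5-labelled pool of RNA from 11 mouse cell lines, with no dye swap. Each culture received a different set of growth factors that act on this pathway, so what belongs to the cells and what to their medium cannot be told apart. The p-values measure the spread between these samples, which for MAPC is the spread within 1 clone as so labelled. In bulk RNA, fewer cells that express a gene and less RNA of it per cell cannot be told apart.

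In this cascade a receptor tyrosine kinase at the cell surface loads Ras with GTP, and Ras starts a relay in which a MAP3K phosphorylates a MAP2K and the MAP2K phosphorylates a MAP kinase. The extracellular signal-regulated kinases (ERK), the Jun N-terminal kinases (JNK) and the p38 kinases are the main MAP kinases. The dual-specificity phosphatases called MAP kinase phosphatases remove the activating phosphates from MAP kinases. Sprouty and Spred proteins act upstream at the level of Ras and Raf, and several of these inhibitors are themselves induced by ERK signalling. In mouse embryonic stem cells ERK activity downstream of FGF favours differentiation and LIF favours self-renewal, whereas neural progenitors in culture depend on FGF and EGF to divide. Transcript levels do not report kinase activity.

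Values are log2 ratios of the sample to the reference pool for 1 probe, and they were compared between groups and never between genes. Differences were tested with limma in 1 fit of all 6 arrays and are given as log2 differences ± the moderated standard error (SE, n = 2 arrays per group). A gene was called when its Benjamini-Hochberg adjusted p over all genes tested lay below 0.05. The replicate arrays of a group correlated at 0.979 to 0.989 over all genes tested, and arrays of different groups at 0.444 to 0.604. All 61 genes passed the filter on dim probes, and none was saturated on any array. That filter is lenient. Each gene was therefore set against the brightest of 314 negative control spots on the same array. By this measure 32 of the 61 genes were brighter on both MAPC arrays, 49 on both ESC arrays and 51 on both NS arrays. That spot had a background-subtracted Cy3 intensity of 39.9 and 164.6 in MAPC, 10.2 and 83.3 in ESC and 30.5 and 69.1 in NS. The level thus differs between arrays, and these counts do not compare the groups. The 95th percentile of the controls lay between 6.1 and 18.2. The 3 arrays of a replicate number carry the same Feature Extraction processing day. Every called difference among the 61 genes had the same sign on both days. A call from 2 arrays per group all but requires this, so it does not test for an effect of the day. The size of a fold depends on the background correction. The 61 genes gave 48 called differences of at least 2-fold, most of which are described below. All 48 kept their direction and their call under the 12 alternatives to the processing that give 1 value per gene. They also kept their direction in the fits without 1 of the arrays. Several of the 12 leave these differences as they are and could not turn their direction. These are Aquantile normalisation, the looser and stricter dim-probe filters, the replicate number as a block and the fit of only the arrays compared. Plain background subtraction and the deposited processed intensities gave much the same values. Taken singly, the second probes of some of these genes did not show the difference, as given for each gene below. The 48 differences were smaller by over 1.5 times in 27 cases without background subtraction and in 10 with the mean of a gene's probes. They were larger by over 1.5 times in 7 from the sample channel alone.

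Many genes differed between these cells, and the cascade has to be read against that background. Between MAPC and ESC 38% of all 35780 genes tested and 50.3% of the named ones were called, with 21% of named genes higher and 29.3% lower in MAPC. Of the 61 cascade genes 43 (70.5%) were called, 17 higher and 26 lower in MAPC. Between MAPC and NS 43.7% of all genes and 55.1% of named genes were called, 28.8% higher and 26.3% lower in MAPC, and 43 of the 61 cascade genes were called, 18 higher and 25 lower. Between ESC and NS 38.2% of all genes and 51% of named genes were called, 29.4% higher and 21.6% lower in ESC, and 37 of the 61 (60.7%) were called, 16 higher and 21 lower. Calls of at least 2-fold made up 12.8%, 16.3% and 13.4% of named genes in these 3 comparisons, in the same order, against 14, 18 and 16 of the 61. The median difference of all named genes was -0.01, 0.04 and 0.03, against -0.06, -0.10 and -0.04 for the 61. The median size of the difference, sign set aside, was 0.43, 0.51 and 0.35 for the 61 genes and 0.21, 0.24 and 0.22 for all named genes.

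**Figure D1:**
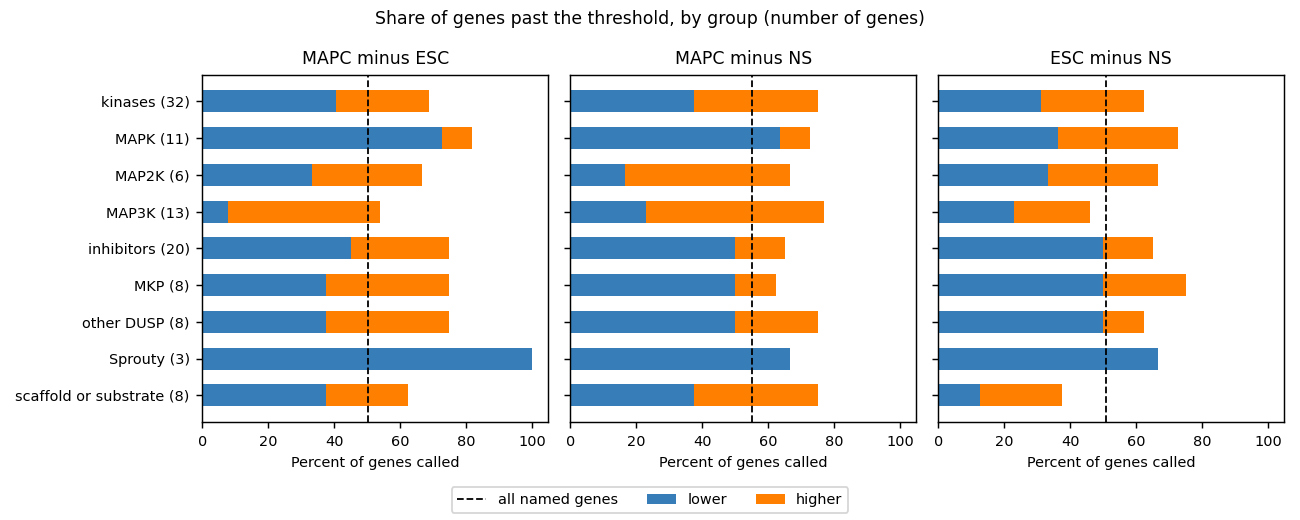
Percent of genes called in each comparison by group, with the number of genes in brackets, split into lower (blue) and higher (orange) in the first-named cells, beside the percent of all named genes called (dashed line). In MAPC minus ESC 8 of the 11 MAP kinases are lower and 1 higher, and 6 of the 13 MAP3K genes are higher and 1 lower.

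The kinases were called in both directions. Of the 32 kinases 22 were called between MAPC and ESC, 9 higher and 13 lower in MAPC. By layer, 8 of the 11 MAP kinases were called lower in MAPC and 1 higher, whereas 6 of the 13 MAP3K genes were called higher and 1 lower. Between MAPC and NS 24 kinases were called, 12 in each direction, with 7 MAP kinases lower and 1 higher, and 7 MAP3K genes higher and 3 lower. Between ESC and NS the 20 called kinases again divided evenly, 10 and 10, with 4 MAP kinases and 3 MAP3K genes in each direction. Of all named genes 29.3% were lower and 21% higher in MAPC than in ESC, and 26.3% lower and 28.8% higher in MAPC than in NS. Between ESC and NS 21.6% were lower and 29.4% higher in ESC. The MAP3K genes called made up 53.8%, 76.9% and 46.2% in the 3 comparisons, beside 50.3%, 55.1% and 51% of named genes. No test compared the layers. The 20 inhibitors gave 15 calls between MAPC and ESC (6 higher, 9 lower in MAPC), 13 between MAPC and NS (3 higher, 10 lower) and 13 between ESC and NS (3 higher, 10 lower in ESC). The comparisons share arrays in pairs, so these counts are not independent of each other.

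**Figure D2:**
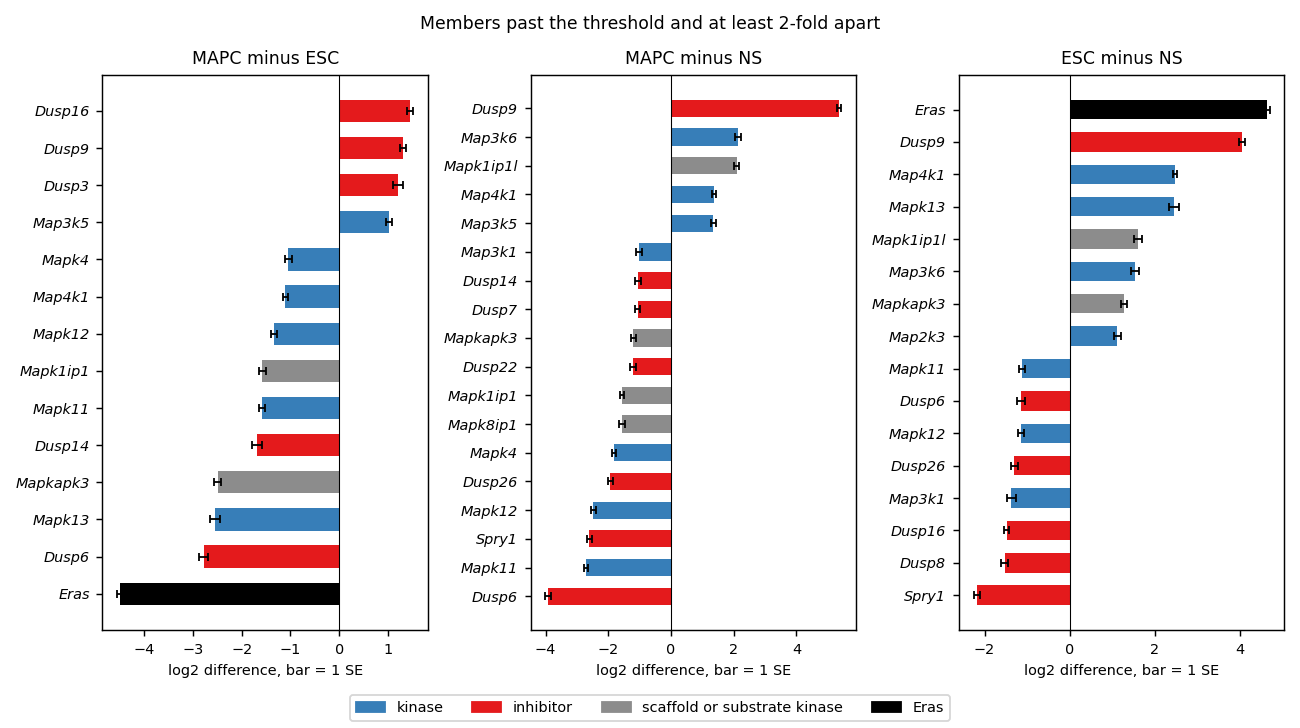
Log2 differences of the genes called and at least 2-fold apart in each comparison, with error bars of 1 SE (n = 2 arrays per group) and colour by role. Eras and Dusp6 lead the genes lower in MAPC than in ESC, Dusp9 the genes higher in MAPC than in NS.

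The probes of some of the genes with the largest differences, Eras, Dusp9, Dusp6, Mapk11 and Mapk13, are shown by their last 30 bases, 5′ to 3′, as deposited with the arrays. All are 60 bases long. Capitals mark AATAAA, the signal for cleavage and polyadenylation that stands near the 3′ end of many transcripts, which is held by 2 of the 75 cascade probes and by 6.98% of all probes on the array. No pair of cascade probes shares a run longer than 12 bases on either strand. Dusp6 and Mapk11 are given with both of their probes because these disagree, as described below.
Eras: gtgttttatgaaactctatgcaaaattaaa
Dusp9: ttgtaatccacatcataatcacattctttc
Dusp6, brighter probe: agtgtctcaaggggtattttggaaagacac
Dusp6, other probe: ccttcccggtggagattttgcccttccttt
Mapk11, brighter probe: gcaccaagagtgtgcacAATAAAggggcat
Mapk11, other probe: ccctctactcagctttccggctttcctcaa
Mapk13: cacatctacaaagagatctcaaacttcagt

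Eras encodes a Ras-like GTPase of embryonic stem cells that is active without a signal. It stood at 4.70 and 4.60 in ESC, at 0.20 and 0.11 in MAPC and at 0.05 and -0.04 in NS. ESC were apart from both other cells by far more than the spread between replicates, while MAPC and NS lay close together. Eras was lower in MAPC than in ESC by -4.49 ± 0.07 (22.5-fold, adjusted p = 1.62e-08) and higher in ESC than in NS by 4.64 ± 0.07 (25-fold, adjusted p = 1.37e-08). The difference of 0.15 ± 0.07 between MAPC and NS did not pass the test (adjusted p = 0.101), and it did with the replicate number as a block (adjusted p = 0.0457). Background-subtracted Cy3 intensity was 20.4 and 24.3 on the MAPC arrays and 2135 and 2261 on the ESC arrays, and neither MAPC array exceeded its brightest negative control. With the signal this close to background in MAPC the size of the difference depended on the background correction. It was -3.21 between MAPC and ESC without subtraction and -6.31 from the sample channel alone.

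The MAP kinase phosphatases did not move together. Dusp9, which acts on ERK in the cytoplasm, was the gene of the set with the largest difference. Its values were 2.74 and 2.87 in MAPC, 1.44 and 1.54 in ESC and -2.60 and -2.53 in NS. The 3 cell types did not overlap, with MAPC at the top and NS far below the reference. Dusp9 was higher in MAPC than in NS by 5.37 ± 0.07 (41.2-fold, adjusted p = 6.39e-09), higher in ESC than in NS by 4.05 ± 0.07 (16.6-fold, adjusted p = 2.55e-08) and higher in MAPC than in ESC by 1.31 ± 0.07 (2.48-fold, adjusted p = 3.35e-06). Its Cy3 intensity was well above the negative controls on all 6 arrays, at 43570 and 45210 in MAPC, 7087 and 8065 in ESC and 246 and 301 in NS. From the sample channel alone the differences were larger, at 7.27 between MAPC and NS and 2.69 between MAPC and ESC.

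Dusp6, a cytoplasmic ERK phosphatase that ERK signalling induces, ran the other way. Its brighter probe read -2.24 and -2.10 in MAPC, 0.48 and 0.73 in ESC and 1.80 and 1.69 in NS. MAPC lay below the reference, ESC slightly above it and NS highest, with no overlap. The difference was -2.78 ± 0.09 between MAPC and ESC (6.86-fold, adjusted p = 3.57e-07), -3.92 ± 0.09 between MAPC and NS (15.1-fold, adjusted p = 4.04e-08) and -1.14 ± 0.09 between ESC and NS (adjusted p = 3.65e-05). The other Dusp6 probe did not show this. It stood at -0.43 and -0.38 in MAPC, -0.37 and -0.30 in ESC and -0.24 and -0.22 in NS, and of its 3 differences only MAPC against NS passed, at -0.17 ± 0.06 (adjusted p = 0.0367). With the mean of both probes the differences from MAPC shrank to -1.43 (ESC) and -2.04 (NS) and stayed past the threshold. On the brighter probe Cy3 intensity in MAPC was 63.45 and 78.15, above the brightest negative control on 1 array. Without background subtraction its differences from MAPC were -1.61 (ESC) and -2.61 (NS).

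Dusp16, a phosphatase directed at JNK and p38, was low in ESC only. It read 0.97 and 1.04 in MAPC, -0.51 and -0.39 in ESC and 1.03 and 1.02 in NS. MAPC and NS overlapped and ESC stood below both. MAPC exceeded ESC by 1.46 ± 0.06 (2.75-fold, adjusted p = 9.44e-07) and ESC fell short of NS by -1.48 ± 0.06 (adjusted p = 8.48e-07), while MAPC and NS differed by -0.02 ± 0.06 (adjusted p = 0.83). Dusp8, which also acts on JNK and p38, was lowest in ESC too, at 0.43 and 0.39, with 1.02 and 1.24 in MAPC and 1.89 and 1.98 in NS. All 3 groups were apart, by 0.72 ± 0.08 between MAPC and ESC (adjusted p = 0.000227), -0.80 ± 0.08 between MAPC and NS (adjusted p = 9.26e-05) and -1.53 ± 0.08 between ESC and NS (adjusted p = 3.23e-06). The Dusp8 probe was dim, above the brightest negative control on 1 MAPC and 1 ESC array. Its difference between MAPC and ESC ranged from 0.20 without background subtraction to 1.245 with the deposited processed intensities.

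Dusp7, a close relative of Dusp6 that acts on ERK, followed the same order as Dusp6 over a narrower range, from 1.10 and 0.89 in MAPC through 1.50 and 1.63 in ESC to 2.09 and 2.03 in NS. The difference between MAPC and NS was -1.07 ± 0.08 (2.1-fold, adjusted p = 2.07e-05) and the other comparisons were also called, at -0.57 for MAPC against ESC and -0.49 for ESC against NS. Its other probe differed by 0.01, -0.05 and -0.06 between the groups and passed in none of the comparisons.

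Dusp1, an immediate-early gene whose product acts on all 3 kinds of MAP kinase in the nucleus, was highest in ESC at 0.55 and 0.38, against -0.33 and -0.22 in MAPC and 0.06 and -0.01 in NS. MAPC lay below ESC by -0.74 ± 0.07 (adjusted p = 0.00011), and this was called under every alternative run. The difference of -0.30 ± 0.07 between MAPC and NS (adjusted p = 0.0119) ended as a call with the mean of the gene's probes (-0.09, adjusted p = 0.381) and without MAPC replicate 1 (-0.25, adjusted p = 0.0729) or NS replicate 1 (-0.27, adjusted p = 0.0776). Dusp2 and Dusp10 passed in no comparison, though Dusp10 did with the replicate number as a block, between MAPC and NS (-0.23, adjusted p = 0.0477) and between ESC and NS (-0.25, adjusted p = 0.0413). Their largest differences were -0.09 ± 0.08 for Dusp2 and -0.25 ± 0.08 for Dusp10 (adjusted p = 0.0524), both between ESC and NS.

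**Figure D3:**
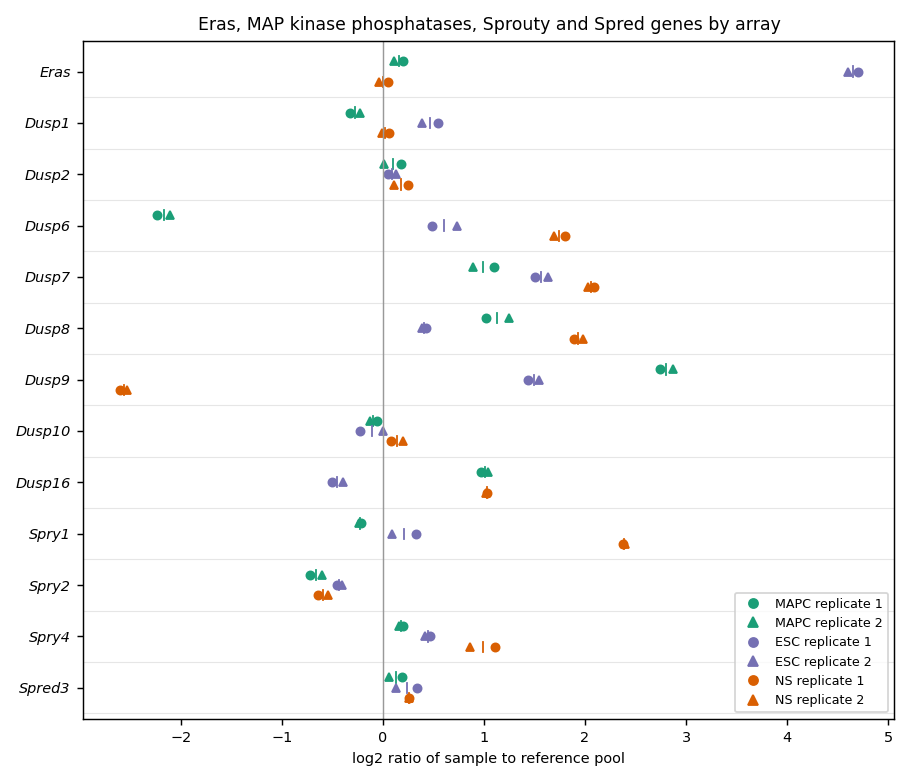
Log2 ratio to the reference pool of Eras and of the MAP kinase phosphatase, Sprouty and Spred genes on each array, with colour for cell type, symbol for replicate and a tick at the group mean. Dusp9 is highest in MAPC and lowest in NS, while Dusp6, Dusp7, Spry1 and Spry4 run from MAPC at the low end to NS at the high end.

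Sprouty genes encode inhibitors that receptor tyrosine kinase signalling induces and that act on the steps before ERK. Spry1 read -0.21 and -0.23 in MAPC, 0.33 and 0.09 in ESC and 2.37 and 2.40 in NS. Only NS stood far from the reference. Spry1 was lower than in NS by -2.61 ± 0.08 in MAPC (6.11-fold, adjusted p = 1.36e-07) and by -2.18 ± 0.08 in ESC (4.52-fold, adjusted p = 5.37e-07). The smaller difference of -0.43 ± 0.08 between MAPC and ESC also passed (adjusted p = 0.00358), except from the sample channel alone (-0.48, adjusted p = 0.135).

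Spry4 followed the same order with smaller steps, at 0.20 and 0.16 in MAPC, 0.47 and 0.42 in ESC and 1.11 and 0.87 in NS. It was lower than in NS by -0.81 ± 0.08 in MAPC (adjusted p = 0.000101) and by -0.54 ± 0.08 in ESC (adjusted p = 0.00116). The difference of -0.27 ± 0.08 between MAPC and ESC (adjusted p = 0.038) was lost when any 1 of the 4 arrays was left out, with adjusted p-values from 0.0787 to 0.145. Spry2 showed little contrast, at -0.72 and -0.60 in MAPC, -0.45 and -0.40 in ESC and -0.64 and -0.54 in NS. MAPC lay below ESC by -0.23 ± 0.07 (adjusted p = 0.0263), which ended as a call without MAPC replicate 1 (-0.17, adjusted p = 0.143), ESC replicate 1 (-0.26, adjusted p = 0.0525) or ESC replicate 2 (-0.21, adjusted p = 0.106) and turned to 0.58 from the sample channel alone. Spred3, the 1 Spred gene measured, differed by at most 0.13 and passed in no comparison.

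Among the other dual-specificity phosphatases, 4 of 8 reached 2-fold. Dusp14 read -1.23 and -1.11 in MAPC, 0.38 and 0.66 in ESC and -0.07 and -0.17 in NS. MAPC was lowest, by -1.69 ± 0.10 against ESC (3.22-fold, adjusted p = 5.06e-06) and by -1.04 ± 0.10 against NS (adjusted p = 5.31e-05). No MAPC array exceeded its brightest negative control for Dusp14, and the difference from ESC ranged from -2.45 with plain subtraction to -0.66 without subtraction. Dusp26 rose from -0.13 and -0.04 in MAPC through 0.67 and 0.44 in ESC to 1.84 and 1.87 in NS, with MAPC below NS by -1.94 ± 0.08 (3.85-fold, adjusted p = 6.73e-07). The other Dusp26 probe, which was dimmer, lay between -0.14 and -0.03 on all 6 arrays and gave no call, and the mean of both probes was lower in MAPC than in NS by -0.99.

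Dusp22 was below the reference in all groups, at -2.65 and -2.44 in MAPC, -1.92 and -1.69 in ESC and -1.38 and -1.31 in NS. Its difference between MAPC and NS was -1.21 ± 0.10 (2.31-fold, adjusted p = 2.55e-05), and its other probe gave -0.36 ± 0.18 (adjusted p = 0.158). Dusp3 (also named VHR), a small phosphatase that acts on ERK and JNK, was highest in MAPC, at 1.83 and 1.50, with 0.43 and 0.50 in ESC and 0.86 and 0.76 in NS. MAPC exceeded ESC by 1.20 ± 0.10 (2.3-fold, adjusted p = 4.9e-05) and NS by 0.85 ± 0.10 (adjusted p = 0.000263). The Dusp3 probe was dim, above the brightest negative control on 1 MAPC and 1 ESC array. Its difference between MAPC and ESC ranged from 0.45 without background subtraction to 1.77 from the sample channel alone. The remaining 4 genes of this family, Dusp13, Dusp15, Dusp18 and Dusp19, differed by -0.90 to 0.64.

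By the brightest probe of each gene, 8 of the 11 MAP kinases were called lower in MAPC than in ESC and 7 lower than in NS. The shares of named genes lower in MAPC were 29.3% and 26.3%. The other probes of Mapk10, Mapk11 and Mapk15 did not repeat the call of the brighter probe between MAPC and ESC. Between MAPC and NS the other Mapk10 probe was also called lower in MAPC. Mapk3 (ERK1), a classical ERK gene, read 0.72 and 0.65 in MAPC, 1.65 and 1.53 in ESC and 0.75 and 0.68 in NS. ESC stood above both others, and MAPC and NS overlapped. MAPC lay below ESC by -0.91 ± 0.06 (1.87-fold, adjusted p = 1.66e-05) and ESC above NS by 0.87 ± 0.06 (adjusted p = 1.82e-05), while MAPC and NS differed by -0.03 ± 0.06 (adjusted p = 0.728).

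Of the p38 genes, 3 differed strongly and in different ways, and Mapk14, the p38 kinase most widely expressed, differed in NS only. Mapk13 (p38 delta) was high in ESC alone, at 2.77 and 2.42, against 0.03 and 0.06 in MAPC and 0.21 and 0.07 in NS. The ESC arrays did not overlap with the others, and MAPC and NS did not differ beyond their spread (-0.10 ± 0.11, adjusted p = 0.537). Mapk13 was lower in MAPC than in ESC by -2.55 ± 0.11 (5.85-fold, adjusted p = 1.24e-06) and higher in ESC than in NS by 2.45 ± 0.11 (5.48-fold, adjusted p = 1.42e-06). Cy3 intensity was 18.5 and 21.4 in MAPC, below the brightest negative control, and 484 and 372 in ESC. Without background subtraction the difference between MAPC and ESC was -1.27, and from the sample channel alone it was -4.13.

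Mapk12 (p38 gamma) and Mapk11 (p38 beta), which are neighbours on chromosome 15 in RefSeq's GRCm38.p6 annotation, both rose from MAPC to ESC to NS by their brighter probes. Mapk12 read -0.59 and -0.60 in MAPC, 0.83 and 0.65 in ESC and 1.92 and 1.84 in NS. Its difference between MAPC and NS was -2.48 ± 0.07 (5.56-fold, adjusted p = 9.02e-08) and between MAPC and ESC -1.34 ± 0.07 (2.52-fold, adjusted p = 3.45e-06). Neither MAPC array exceeded its brightest negative control, and the difference from NS ranged from -1.14 without background subtraction to -3.91 from the sample channel alone. Mapk11 read -1.94 and -1.85 in MAPC, -0.24 and -0.37 in ESC and 0.79 and 0.83 in NS, a difference of -2.70 ± 0.07 between MAPC and NS (6.5-fold, adjusted p = 4.55e-08) and of -1.59 ± 0.07 between MAPC and ESC (3.01-fold, adjusted p = 1.04e-06).

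The other Mapk11 probe went against this. It stood at 0.20 and 0.31 in MAPC, 0.01 and 0.02 in ESC and 0.01 and 0.01 in NS, so that MAPC was higher than ESC by 0.24 ± 0.06 (adjusted p = 0.0122) and than NS by 0.24 ± 0.06 (adjusted p = 0.00971). The direction of Mapk11 in MAPC therefore depends on the probe, and the mean of both gave -0.67 against ESC and -1.23 against NS. Mapk14 (p38 alpha) read 0.85 and 0.72 in MAPC, 0.74 and 0.83 in ESC and -0.02 and 0.02 in NS. MAPC and ESC overlapped and both exceeded NS, by 0.79 ± 0.06 (adjusted p = 2.73e-05) and 0.78 ± 0.06 (adjusted p = 3.48e-05).

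Among the less studied MAP kinases, Mapk4 (ERK4) rose from -0.07 and -0.13 in MAPC through 1.03 and 0.85 in ESC to 1.76 and 1.69 in NS, with MAPC below ESC by -1.04 ± 0.07 (2.06-fold, adjusted p = 1.62e-05) and below NS by -1.82 ± 0.07 (3.53-fold, adjusted p = 5.09e-07). Mapk6 (ERK3), its close relative, was highest in ESC at 0.98 and 1.04, with 0.25 and 0.14 in MAPC and 0.50 and 0.37 in NS, and MAPC lay below ESC by -0.82 ± 0.07 (adjusted p = 4.57e-05). Its difference of -0.24 ± 0.07 between MAPC and NS (adjusted p = 0.0227) was lost without MAPC replicate 2 (-0.19, adjusted p = 0.129) or NS replicate 1 (-0.18, adjusted p = 0.146). Mapk7 (ERK5) was higher in NS, at 1.69 and 1.68, than in MAPC (0.99 and 1.06) or ESC (1.11 and 1.06), and MAPC and ESC did not differ beyond their spread.

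Mapk10, the JNK gene known from neural tissue, read -0.02 and -0.03 in MAPC, 0.49 and 0.31 in ESC and 0.53 and 0.45 in NS on its brighter probe, so that MAPC was lower than ESC by -0.42 ± 0.07 (adjusted p = 0.00244) and than NS by -0.51 ± 0.07 (adjusted p = 0.000708). Its other probe was raised in NS alone, at 1.06 and 1.29, against -0.07 and -0.21 in MAPC and -0.08 and -0.21 in ESC. By that probe ESC lay below NS by -1.32 ± 0.09 (adjusted p = 1.32e-05), where the brighter probe gave -0.09 ± 0.07 (adjusted p = 0.429). Mapk15, an atypical MAP kinase, was the 1 MAP kinase called higher in MAPC than in ESC, by 0.27 ± 0.05 (adjusted p = 0.0034), and its other probe gave 0.05 with no call.

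**Figure D4:**
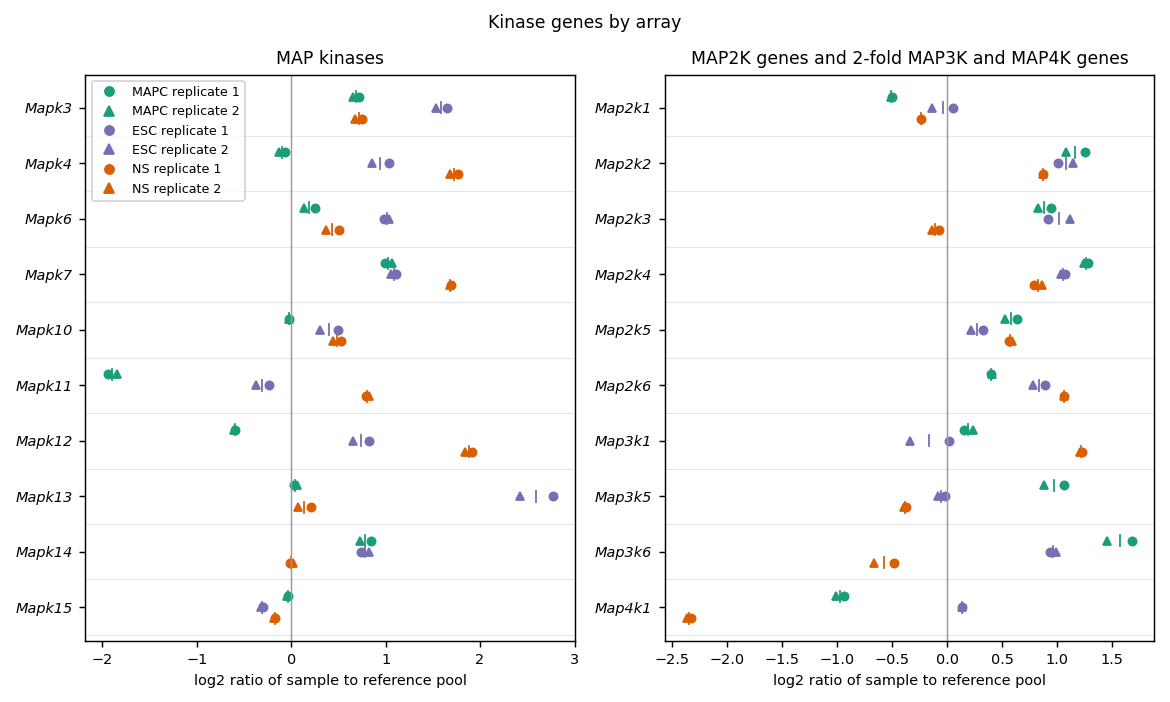
Log2 ratio to the reference pool of the MAP kinases described in the text (left) and of the MAP2K genes with the MAP3K and MAP4K genes that reached 2-fold (right) on each array, with colour for cell type, symbol for replicate and a tick at the group mean. Mapk13 and Mapk3 stand apart in ESC, and Map4k1 is lowest in NS.

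The MAP2K layer, which joins the MAP3K to the MAP kinases, had no gene that reached 2-fold in either comparison with MAPC. Map2k3, which activates p38, read 0.94 and 0.82 in MAPC, 0.92 and 1.11 in ESC and -0.07 and -0.14 in NS. MAPC and ESC overlapped, and both exceeded NS, by 0.99 ± 0.08 (adjusted p = 2.5e-05) and 1.12 ± 0.08 (2.18-fold, adjusted p = 1.54e-05). Map2k6, the other activator of p38, had the opposite order, from 0.40 and 0.40 in MAPC through 0.89 and 0.78 in ESC to 1.06 and 1.07 in NS, with MAPC below NS by -0.66 ± 0.06 (adjusted p = 3.92e-05). Its probe was dim, above the brightest negative control on neither MAPC array. The step from ESC to NS (-0.23 ± 0.06, adjusted p = 0.0147) was lost without ESC replicate 2 (-0.17, adjusted p = 0.0771), NS replicate 1 (-0.23, adjusted p = 0.0704) or NS replicate 2 (-0.23, adjusted p = 0.0725). It was called in 10 of 18 alternatives in all, and with plain background subtraction it was -0.16 (adjusted p = 0.406).

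The ERK activators changed little. Map2k1 (MEK1) read -0.50 and -0.51 in MAPC, 0.05 and -0.13 in ESC and -0.24 on the 1 NS array left after an outlier spot was removed. It was lower in MAPC than in ESC by -0.47 ± 0.08 (adjusted p = 0.00273), and neither difference from NS passed. Map2k2 (MEK2) read 1.25 and 1.08 in MAPC, 1.01 and 1.15 in ESC and 0.87 and 0.87 in NS, and the 1 call, MAPC over NS by 0.29 ± 0.08 (adjusted p = 0.0154), was lost without MAPC replicate 1 (0.21, adjusted p = 0.0905), NS replicate 1 (0.30, adjusted p = 0.0689) or NS replicate 2 (0.29, adjusted p = 0.0718). Those Map2k2 values are of its brighter probe. On its other probe MAPC exceeded NS by 0.38 ± 0.06 (adjusted p = 0.00142) and ESC by 0.28 ± 0.06 (adjusted p = 0.00865). Map2k4, an activator of JNK, was higher in MAPC (1.28 and 1.25) than in NS (0.79 and 0.86) by 0.44 ± 0.05 (adjusted p = 0.000311), and its other probe gave 0.09 with no call. Map2k5, which activates ERK5, was lower in ESC, at 0.32 and 0.21, than in MAPC (0.63 and 0.53) or NS (0.56 and 0.59). Those differences were 0.31 ± 0.06 and -0.30 ± 0.06 (adjusted p = 0.00577 and 0.00634), and with plain background subtraction both calls ended (0.58 and -0.57, adjusted p = 0.111 and 0.119).

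Of the 13 MAP3K genes, 3 reached 2-fold. Map3k5 (ASK1), a kinase activated by oxidative stress, read 1.06 and 0.88 in MAPC, -0.02 and -0.08 in ESC and -0.38 and -0.39 in NS, and MAPC exceeded ESC by 1.02 ± 0.07 (2.03-fold, adjusted p = 1.39e-05) and NS by 1.35 ± 0.07 (2.55-fold, adjusted p = 2.01e-06). Map3k6 (ASK2), its partner, followed the same order, at 1.68 and 1.45 in MAPC, 0.94 and 0.99 in ESC and -0.48 and -0.66 in NS. It was higher in MAPC than in NS by 2.14 ± 0.09 (4.4-fold, adjusted p = 7.11e-07) and higher in ESC than in NS by 1.53 ± 0.09 (2.89-fold, adjusted p = 5.99e-06). Map3k1 (MEKK1), which feeds JNK, was instead highest in NS, at 1.22 and 1.21, with 0.15 and 0.23 in MAPC and 0.02 and -0.34 in ESC. NS exceeded MAPC and ESC, the differences being -1.02 ± 0.11 (adjusted p = 0.000115) and -1.38 ± 0.11 (2.59-fold, adjusted p = 2.58e-05). MAPC over ESC, at 0.35 ± 0.11 (adjusted p = 0.0349), was lost without ESC replicate 2 (0.17, adjusted p = 0.103), MAPC replicate 1 (0.39, adjusted p = 0.0736) or MAPC replicate 2 (0.31, adjusted p = 0.149). It was called in 7 of 18 alternatives in all. The 2 MAP4K genes, which act above the MAP3K, differed from each other. Map4k1 (HPK1), known from blood cells, read -0.94 and -1.01 in MAPC, 0.13 and 0.13 in ESC and -2.33 and -2.36 in NS. ESC exceeded MAPC (-1.11 ± 0.05, adjusted p = 2.16e-06) and MAPC exceeded NS (1.37 ± 0.05, adjusted p = 4.39e-07). Between ESC and NS the difference was 2.48 ± 0.05 (5.58-fold, adjusted p = 5.42e-08).

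Of the other 10 MAP3K genes 4 were called between MAPC and ESC, 7 between MAPC and NS and 3 between ESC and NS. Of named genes 50.3%, 55.1% and 51% were called in these comparisons. All differences of the 10 genes lay between -0.27 and 0.97. Map3k11 (MLK3), named here after its values were seen, had similar values from its 2 probes. They gave 0.90 ± 0.06 and 0.95 ± 0.15 for MAPC over ESC (adjusted p = 8.55e-06 and 0.00146). Map4k4 was lower in MAPC than in NS by -0.81 ± 0.06 (adjusted p = 1.39e-05).

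Among the scaffold proteins and substrate kinases, Mapkapk3, a kinase that p38 phosphorylates, read -0.71 and -0.67 in MAPC, 1.91 and 1.70 in ESC and 0.55 and 0.48 in NS. The groups did not overlap, and MAPC lay below ESC by -2.49 ± 0.08 (5.62-fold, adjusted p = 2.15e-07) and below NS by -1.20 ± 0.08 (2.3-fold, adjusted p = 5.98e-06). Mapk8ip1 (JIP1), a JNK scaffold known from neurons, rose from 0.11 and 0.17 in MAPC through 0.94 and 0.67 in ESC to 1.69 and 1.73 in NS, with MAPC below NS by -1.57 ± 0.09 (2.96-fold, adjusted p = 3.1e-06). Mapk1ip1 read -0.78 and -0.81 in MAPC and between 0.72 and 0.83 on the ESC and NS arrays, so that MAPC stood alone, by -1.57 ± 0.06 against each (adjusted p = 8.46e-07 and 5.51e-07). Mapk1ip1l, which shares only part of that name, was high in MAPC (2.80 and 2.86) and ESC (2.44 and 2.25) and lower in NS (0.63 and 0.84), a difference of 2.09 ± 0.09 between MAPC and NS (4.26-fold, adjusted p = 7.81e-07). The other 4 genes, Map3k7cl, Mapk8ip2, Mapkap1 and Mapkbp1, differed by at most 0.33.

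Placed in order, 20 of the 61 genes ran NS over ESC over MAPC, and in 12 of them (19.7%) both neighbouring pairs of groups differed past the threshold. Of 12112 named genes 18.4% had this order, and 7.32% with both steps called. The 12 were Dusp6, Dusp7, Dusp22, Dusp26, Spry1 and Spry4 among the inhibitors, Mapk4, Mapk11, Mapk12, Map2k6 and Map4k4 among the kinases, and Mapk8ip1. Tested singly, the other probes of Dusp6, Dusp7, Dusp22, Dusp26, Mapk11 and Map2k6 gave neither step as a call in this direction. Both steps held under every alternative with 1 value per gene in 6 of the 12, namely Dusp6, Dusp26, Mapk4, Mapk11, Mapk12 and Mapk8ip1. The reverse order, MAPC over ESC over NS, held for 13 genes and was called at both steps in 5 (8.2%, against 5.62% of named genes), of which Dusp9 and Mapk1ip1l held under every such alternative. With ESC at the top, ESC over MAPC over NS was called at both steps in 1 gene (1.64%, against 4.67% of named genes). ESC over NS over MAPC was called at both steps in 4 (6.56%, against 4%). Of these 5 genes Map4k1, Dusp14 and Mapkapk3 held under every such alternative. With ESC at the bottom, MAPC over NS over ESC was called at both steps in 3 genes (4.92%, against 2.34% of named genes). NS over MAPC over ESC was called at both steps in 3 (4.92%, against 2%). Of these 6 genes Dusp8 alone held. Dusp9 was the 1 inhibitor that ran from MAPC down to NS with both steps called.

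A second probe was present for 14 of the 61 genes, and these pairs limit how firmly single genes can be read. Between MAPC and ESC, 3 pairs were called with the same sign, 8 were called by the brighter probe alone, 1 by the other probe alone, 1 by neither and 1 (Mapk11) with opposite signs. Between MAPC and NS 6 pairs were called with the same sign, 6 by the brighter probe alone, 1 by neither and 1 (Mapk11 again) with opposite signs. Between ESC and NS 1 pair was called with the same sign (Dusp1), 8 by the brighter probe alone, 1 by the other alone (Mapk10) and 4 by neither. Which transcript each probe reports was not tested.

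**Figure D5:**
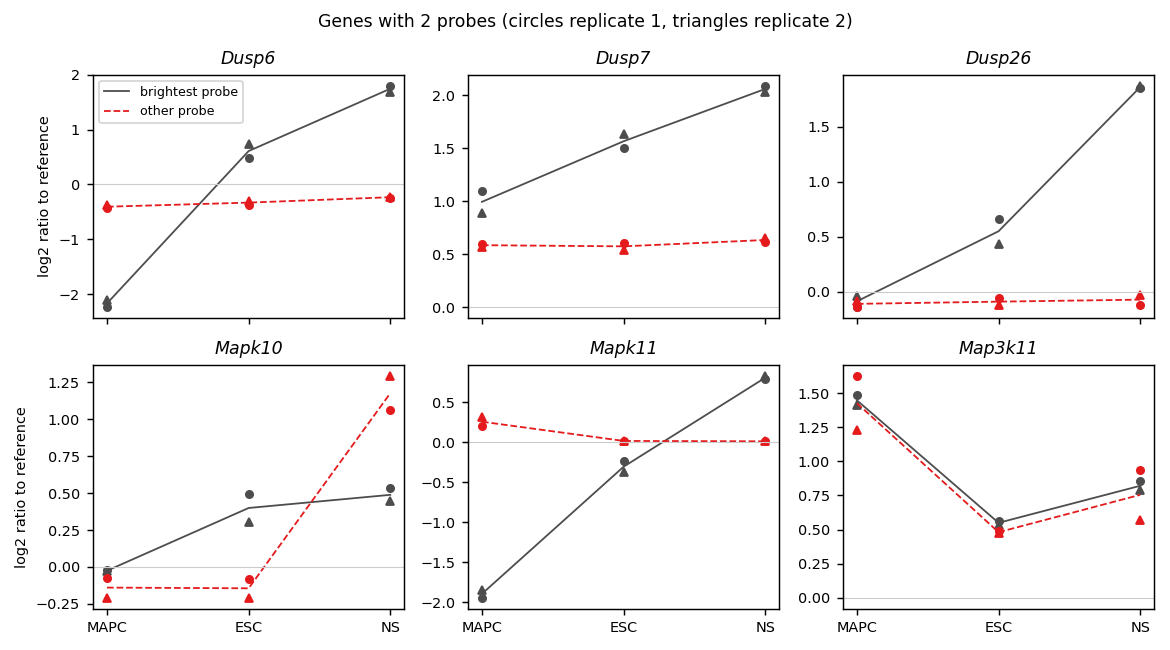
Log2 ratio to the reference pool of both probes of 6 genes in MAPC, ESC and NS, with circles for replicate 1, triangles for replicate 2 and lines joining group means. The other probes of Dusp6, Dusp7 and Dusp26 are nearly flat where the brighter ones rise from MAPC to NS, the Mapk11 probes go opposite ways, and the Map3k11 probes follow each other.

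The rest of the pathway was read from 7 lists that held 79 measured genes of 112 listed. Between MAPC and ESC 50 of the 79 were called, 23 higher and 27 lower in MAPC, beside 50.3% of named genes. Between MAPC and NS 55 were called, 29 higher and 26 lower, beside 55.1%, and between ESC and NS 52, 25 higher and 27 lower, beside 51%. Transcription factors and other genes that ERK signalling induces formed the longest list, with 25 measured. Of these 12 were lower and 7 higher in MAPC than in ESC, 14 lower and 8 higher in MAPC than in NS, and 12 lower and 6 higher in ESC than in NS. The median difference of this list was -0.08, -0.29 and -0.20, beside -0.01, 0.04 and 0.03 over all named genes.

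The largest differences of this list were of both signs, and its members did not move together. Fos and Junb, not among the 4 largest differences of the pathway lists in any comparison, were picked as examples. Both were higher in MAPC than in ESC, by 0.49 ± 0.08 (adjusted p = 0.00164) and 0.68 ± 0.09 (adjusted p = 0.000438). Egr1, an immediate-early transcription factor, read -6.96 and -6.83 in MAPC, -4.29 and -4.16 in ESC and -1.48 and -1.45 in NS. It was lower in MAPC than in NS by -5.43 ± 0.07 (adjusted p = 6.39e-09), and lower in ESC than in NS by -2.76 ± 0.07 (adjusted p = 9.93e-08). Its Cy3 intensity in MAPC was 49.2 and 49.8, above the brightest negative control on 1 array. The difference between MAPC and NS ranged from -3.76 without background subtraction to -6.47 from the sample channel alone. Etv1 and Etv5, ETS factors induced by FGF, differed in which cells stood apart. Etv1 read -3.29 and -3.08 in MAPC, -0.64 and -0.57 in ESC and 2.22 and 2.14 in NS, a difference of -5.36 ± 0.08 between MAPC and NS and of -2.79 ± 0.08 between ESC and NS. Its Cy3 intensity of 34.5 and 51.1 in MAPC exceeded the brightest negative control on neither array, and the difference from NS ranged from -3.66 without background subtraction to -6.47. Etv5 read 0.03 and -0.14 in MAPC, 3.21 and 2.94 in ESC and 3.03 and 3.14 in NS on its brighter probe. By that probe MAPC lay below ESC by -3.14 ± 0.10 (adjusted p = 2.71e-07), and by -1.78 with the mean of its 2 probes. Ccnd1 (cyclin D1), which drives entry into the cell cycle, read -2.14 and -1.87 in MAPC, 0.84 and 0.99 in ESC and 2.21 and 2.23 in NS. It was lower in MAPC than in NS by -4.23 ± 0.10 (adjusted p = 3.08e-08), and by -2.54 with the mean of its 2 probes. Atf3, a stress-induced transcription factor, went the other way, at 2.37 and 2.12 in MAPC against -1.25 and -1.24 in ESC and -1.02 and -1.13 in NS, and MAPC exceeded ESC by 3.49 ± 0.09 (adjusted p = 8.23e-08). Emp1, a membrane protein gene, was near the reference in ESC (-0.35 and 0.02) and low in MAPC (-4.34 and -4.61) and NS (-3.54 and -3.60), which made it lower in MAPC than in ESC by -4.31 ± 0.13 and higher in ESC than in NS by 3.40 ± 0.13.

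Upstream of the kinases, the Ras GTPase-activating genes, which switch Ras off, had 5 measured members. Of these 4 were lower in MAPC than in ESC and 3 lower in MAPC than in NS, and none was higher in either. Of named genes 29.3% and 26.3% were lower in MAPC in these comparisons. Of the 15 Ras and Raf genes 8 were higher and 3 lower in MAPC than in ESC, and 8 higher and 4 lower in MAPC than in NS. The shares of named genes higher in MAPC were 21% and 28.8%. The 8 receptors gave 4 calls between MAPC and ESC, among them Pdgfra, a receptor of the PDGF given to the MAPC culture, at 0.93 and 0.91 in MAPC, -2.12 and -2.04 in ESC and -1.48 and -1.52 in NS. It was higher in MAPC than in ESC by 3.00 ± 0.06 (adjusted p = 2.77e-08). Among 8 further inhibitors of the pathway Lrig1, which limits EGF receptor signalling, read -3.85 and -3.46 in MAPC, -1.11 and -1.13 in ESC and 1.97 and 1.99 in NS, a difference of -5.64 ± 0.11 between MAPC and NS (adjusted p = 2.03e-08) and of -3.10 ± 0.11 between ESC and NS (adjusted p = 5.24e-07). Beside the same shares of named genes, the 10 adaptor and exchange factor genes gave 4, 4 and 8 calls in the 3 comparisons, and the 8 substrate kinases gave 4 in each.

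RefSeq promoter windows (GRCm38.p6, 250 bases before to 50 after the gene start) were found for 46 of the 61 genes and searched on both strands for letters that factors downstream of MAP kinases can bind. These genes have 61 windows, since some have several starts. The ETS core CCGGAA was held by 15 of the 61 windows (24.6%) and by 14.9% of all 32851 windows, the AP-1 sequence TGANTCA by 2 (3.28%) and 7.81% of all, and the cyclic AMP response element TGACGTCA by 3 (4.92%) and 1.79% of all. Windows of 1 gene can overlap. The 3 genes with the last motif, in capitals here, were Dusp1, Dusp8 and Mapk10, and Dusp8 held it at 2 places. TGACGTCA contains neither of the other motifs. In their order below, the stretches are chr17:26508592-26508631, chr7:142095368-142095407, chr7:142095324-142095363 and chr5:103211340-103211379, all on the minus strand and written 5′ to 3′ along the gene, and the motif begins 143, 107, 63 and 29 bases before the gene start. Dusp1 was highest in ESC and Dusp8 lowest there.
Dusp1: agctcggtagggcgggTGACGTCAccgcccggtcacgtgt
Dusp8, first site: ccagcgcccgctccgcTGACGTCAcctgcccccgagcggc
Dusp8, second site: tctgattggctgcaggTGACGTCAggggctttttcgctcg
Mapk10: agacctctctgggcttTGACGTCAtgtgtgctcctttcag

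Markers were set beside these results. The ESC list of 5 holds Eras itself. The other 4, Pou5f1, Zfp42, Nr0b1 and Sox2, were all lower in MAPC than in ESC, and 3 of these 4 were higher in ESC than in NS, with Sox2 high in both. Between MAPC and NS 2 of the 4 were called higher and 1 lower in MAPC. Of the 7 NS markers 6 were lower in MAPC than in NS, and Sox1 was called in no comparison. Fibroblast markers, which could come from the feeder layer of the ESC culture, were higher in ESC. Of 9 measured, 8 were lower in MAPC than in ESC and 7 were higher in ESC than in NS, and their summed background-subtracted Cy3 intensity was 19000 and 16900 in ESC, 1220 and 1130 in MAPC and 8260 and 9410 in NS. Their part in the values of genes that were highest in ESC, such as Mapk13, Mapk3, Mapkapk3, Dusp14 and Emp1, was not tested. Of the 5 neuron markers measured, 3 were lower and 1 higher in MAPC than in ESC, and 3 were higher and 2 (Gap43 and Map2) lower in ESC than in NS. Their summed intensity was 27500 and 26000 in ESC, 6240 and 8060 in MAPC and 9350 and 10000 in NS, and their part was not tested. Of 5 leukocyte markers measured, 3 were lower in MAPC than in ESC, 1 lower in MAPC than in NS and 2 higher in ESC than in NS. Lyz2, the lysozyme gene of myeloid cells, read 0.82 and 0.98 in ESC against -2.25 and -1.90 in MAPC and -2.16 and -2.01 in NS, while Ptprc (CD45) differed in no comparison. The summed intensity of these markers was 1660 and 2010 in ESC, 319 and 405 in MAPC and 470 and 2660 in NS, the last including 2225 from an outlier spot of Adgre1 that was left out of the fit, and their part in the results was not tested.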

How the data were processed

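Per the file headers, the deposited scanner files hold mean spot intensity and median local background intensity for Cy3 (sample) and Cy5 (reference), read with Agilent Feature Extraction. The authors' processed intensities and the deposited series matrix served as alternatives. The matrix values, as deposited by the authors, are on a log10 scale, with their normalisation not stated in the labels or headers. The median of a column lay at 2.95 to 2.97. Differences between its columns correlated with the scanner log10 ratios at 0.833 to 0.982, and the centring stays unknown.

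Intensities were corrected with normexp (offset 50) and normalised within arrays by loess in limma 3.58.1 (R 4.3.3, with the package data.table, version 1.17.8). Outlier spots were left out, spots of 1 probe averaged, and the brightest probe taken for each gene. A gene was tested if well above background on both arrays of at least 1 group, which left 35795 genes, 12119 of them named. All groups entered 1 limma fit (lmFit, eBayes, two-sided, 3 residual degrees of freedom). The number of arrays limits the precision, and no depth applies. The fit was tested on simulated data. Accessions named 15294 probes, symbols 15 and older symbols 72. The other 25625 kept the name in the files.

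The MAP kinases, MAP2K genes, MAP kinase phosphatases, Sprouty, Spred and Eras are named with values, and of the others those called and at least 2-fold apart in at least 1 comparison, plus the 4 largest called differences of the pathway lists in each. A gene among the MAP kinases counts in the totals and is not reported here. Members and lists were chosen with earlier results of these data known. Other alternatives were background correction, normalisation, dim-probe filters, mean of probes, arrays in the fit, replicate block and leaving out each array. No column of per-sample values lacked a sample.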

Additional observations from a re-analysis of the deposited data

How the results depend on the processing

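Of the calls among the 61 genes, 24 of 43 (MAPC minus ESC), 30 of 43 (MAPC minus NS) and 27 of 37 (ESC minus NS) held under every alternative that gives 1 value per gene. Single probes did not all agree, and Mapk11 reversed on its other probe (0.24 in MAPC minus ESC and in MAPC minus NS). The sample channel alone changed most. Genes called fell to 7426, 10295 and 7344 of all tested in these comparisons, cascade genes to 26 between MAPC and ESC, kinases to 12 (MAPC minus ESC) and 13 (ESC minus NS), and inhibitors to 9 (MAPC minus ESC). It reversed Spry2 between MAPC and ESC (0.58) and between MAPC and NS (1.00), and Map2k4 between ESC and NS (-0.046). The cause was not tested. Scale normalisation and probes tested singly were added after seeing the data, since Aquantile leaves log ratios as they are. With replicate number as a block, which is also the processing day, 44, 47 and 41 of the 61 genes were called. Replicate 1 minus replicate 2 correlated between groups at 0.105 to 0.209. With 2 numbers this is a hint only. The block ended no call and added 9 among the 61 genes over the 3 comparisons. Leaving out 1 array left 38 to 42, 36 to 39 and 33 to 37 of the 61 genes called, the lone array being assumed to vary like the other groups. Dim signal limits sizes. In MAPC 10 of the 61 genes exceeded the brightest negative control on neither array, with 0 in ESC and 2 in NS. At each replicate number that control spot was itself brightest on the MAPC array, so these counts do not compare the groups.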
